A study of Mus musculus with 9 samples.

Results

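The comparison described here set mouse CD4+ T cells that were activated in the presence of TEPP-46 against resting cells, across all genes. It comprised 6 of the 9 libraries of the series, chosen by their labels: 3 libraries of resting cells and 3 of activated cells given the drug, numbered 1, 4 and 5 in each group. The resting group was CD4+ T cells, taken from spleens of C57BL/6 mice by magnetic sorting. The TEPP-46 group was such cells that were incubated with TEPP-46 for 15 min and then stimulated on plates coated with anti-CD3 and anti-CD28 antibodies. TEPP-46 was used at a concentration the labels give as a range of 50 to 100 µM and not per library. The other 3 libraries, of cells stimulated in the same way after 15 min with the solvent DMSO, served to sort the changes into those that activation made with or without the drug and those that appeared with the drug. The sources used here give neither the length of stimulation nor whether the resting cells were cultured. No label ties the replicates to separate animals, so the p-values measure the spread between these libraries, which may be technical.

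Naive T cells are quiescent and circulate through lymphoid organs. Antibodies against CD3 and CD28 stand in for antigen and costimulation, upon which the cells grow, turn to aerobic glycolysis, divide and express receptors for cytokines. Pyruvate kinase catalyses the last step of glycolysis. Its M2 form, made from the Pkm gene, can exist as a highly active tetramer or as less active forms that also occur in the nucleus, and TEPP-46 is a small molecule that binds the M2 form and favours the tetramer. The question of the comparison was which activation changes remain when cells are activated under this drug and which changes the drug adds.

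Total counts were 5030643, 3903124 and 4754814 in resting replicates 1, 4 and 5 and 3900023, 2397304 and 3234647 in the TEPP-46 replicates, against 3773438 to 4043226 in the DMSO libraries. Levels are in CPM (counts per 1000000 after scaling), listed in the order of replicates 1, 4 and 5, and changes are log2 fold changes ± standard error. A gene was called when its p from the quasi-likelihood test of edgeR, after Benjamini-Hochberg adjustment over 12536 genes, was below 0.05. All 8 T cell markers (Cd3e, Cd3d, Cd3g, Cd4, Lat, Thy1, Trac and Cd5) were present in every library, and Cd5 was the only one called (1.14 ± 0.28, adjusted p = 0.0322), a call lost without resting replicates 4 or 5, DMSO replicates 1, 4 or 5 or TEPP-46 replicate 5 (highest adjusted p 0.0742). The TEPP-46 libraries differed more among themselves than those of the other groups, with a median SD of log2 CPM of 0.52, against 0.31 in resting and 0.20 in DMSO libraries. TEPP-46 replicate 4 had the fewest genes with a count (14438). Summed levels of 8 platelet and red cell markers were 16.7, 269.9 and 84.1 CPM in the TEPP-46 libraries and at most 11.6 CPM in any resting library. The platelet markers Pf4, Ppbp, Itga2b and Gp9 gave 367, 131, 143 and 5 counts in TEPP-46 replicate 4, while the red cell markers Hbb-bs and Hba-a1 had 0 counts in all TEPP-46 libraries. Neutrophil markers summed to 0.822, 182 and 4.19 CPM in TEPP-46 and 106 to 185 CPM in resting libraries. A list of 9 nuclear RNAs (Malat1, Neat1 and others) summed to 3340.1, 13030.1 and 13567 CPM in TEPP-46 libraries, so that replicates 4 and 5 lay above the resting range of 4832 to 8873 CPM and replicate 1 below it. The part of these differences in the results was not tested, except where a value without a library is given.

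Cells activated under TEPP-46 differed from resting cells in 1289 genes, which is 10.3% of those tested. Of these, 798 rose (6.37%) and 491 fell (3.92%), 719 and 371 of them by more than 2-fold. The libraries of both groups did not overlap in 26.8% of all genes. In DMSO, 1938 genes rose (15.5%) and 1976 fell (15.8%), 31.2% in all, and in a direct test of TEPP-46 against DMSO 1219 genes were higher (9.72%) and 806 lower (6.43%). Both comparisons used the same 3 resting libraries, so genes were sorted by the direct test as well. Calls of TEPP-46 against resting were fewer without single libraries: 270 rises without resting replicate 5, 273 without resting replicate 4, and 518, 473 and 456 without DMSO replicates 1, 4 and 5. Falls were then 156, 178, 315, 297 and 294, and they numbered 816 without TEPP-46 replicate 1. A fit of the 6 resting and TEPP-46 libraries alone called 246 rises and 154 falls.

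An activation change was termed kept when it was called against resting both in DMSO and in TEPP-46 cells in the same direction. There were 520 kept rises (4.15% of genes) and 340 kept falls (2.71%). Of the kept rises, 447 were not called in the direct test against DMSO, 57 were lower than in DMSO and 16 higher. Of the kept falls, 299 were not called in the direct test, 39 stood above the DMSO level and 2 below. The median change of the kept rises was 2.19 with TEPP-46 and 2.49 with DMSO, and that of the kept falls was -1.74 and -1.96. A change was termed lost when it was called in DMSO and not in TEPP-46 cells, and the direct test called TEPP-46 cells different in the opposing direction. There were 471 lost rises (3.76%) and 730 lost falls (5.82%). Another 946 rises and 898 falls of DMSO cells passed neither the test against resting under TEPP-46 nor the direct test, so they could be assigned to neither class. Changes were termed added when called against resting with TEPP-46 and not with DMSO, and called against DMSO in the same direction. There were 151 added rises (1.2%) and 62 added falls (0.495%). A further 119 rises and 88 falls were called with TEPP-46 only but not in the direct test.

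**Figure D1:**
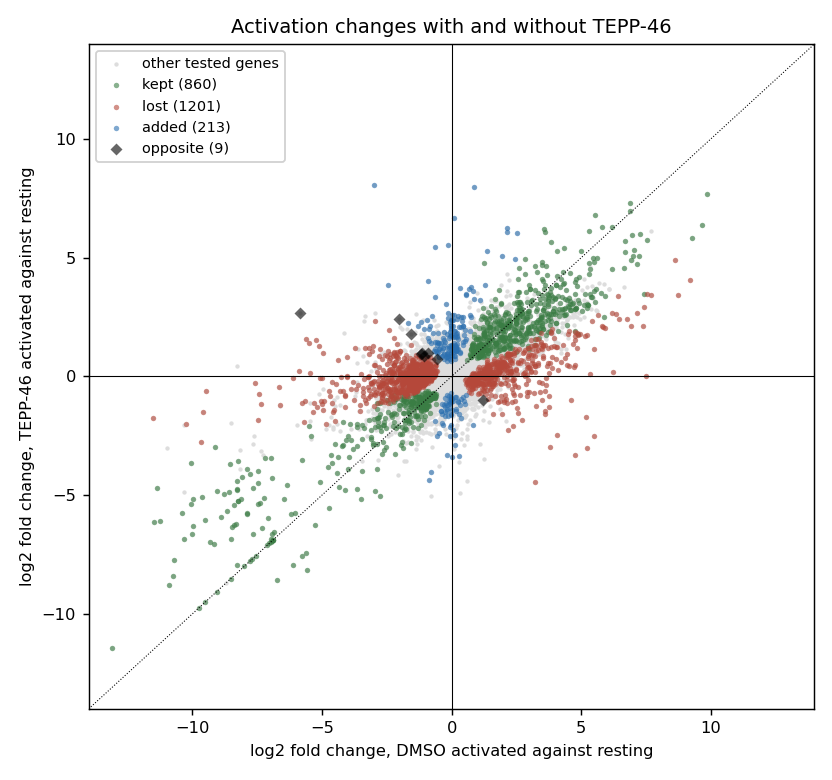
Log2 fold change against resting cells of the tested genes (1 point each), with DMSO on the x axis and TEPP-46 on the y axis. Kept changes (860) spread along the dotted line of equal change, lost changes (1201) around a y value of 0 and added changes (213) around an x value of 0, while 9 genes were called in opposite directions.

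The sizes of these classes moved with single libraries. Kept rises numbered 188 and 191 without resting replicate 5 or 4, and 303, 285 and 274 without DMSO replicate 1, 4 or 5. Kept falls numbered 132, 149, 212 and 209 without resting replicate 5 or 4 or DMSO replicate 4 or 5. Lost rises and falls numbered 1192 and 1251 without TEPP-46 replicate 1, and 138 and 292 without TEPP-46 replicate 5. They numbered 145 and 249, 104 and 249, and 85 and 181 without DMSO replicate 1, 4 or 5, and lost rises 309 without resting replicate 4. Added rises and falls numbered 360 and 244 without TEPP-46 replicate 1, 65 and 20 without TEPP-46 replicate 5, and 53 and 14 or 55 and 13 without resting replicate 4 or 5. Without DMSO replicate 1, 4 or 5 they numbered 56 and 16, 51 and 15, and 42 and 13. Genes are described first in each section when they stayed in their class without each of the 9 libraries in turn, and exceptions are named. List counts are to be read beside the shares over all genes. With TEPP-46 these were 6.37% rises and 3.92% falls, and with DMSO 15.5% and 15.8%.

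The TEPP-46 libraries did not respond alike over the activation genes. Over the 1938 genes that rose in DMSO, the median difference from resting in TEPP-46 replicates 1, 4 and 5 was 67.3%, 25.4% and 29.3% of that in the DMSO group. Over the 1976 genes that fell in DMSO it was 54.6%, 30% and 24.1%. These genes were chosen by their DMSO values, so the DMSO libraries lie near 100% by construction. Replicate 1 lay beyond the range of the resting libraries in 84.4% of the rises, and replicates 4 and 5 in 55.2% and 59.9%.

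**Figure D2:**
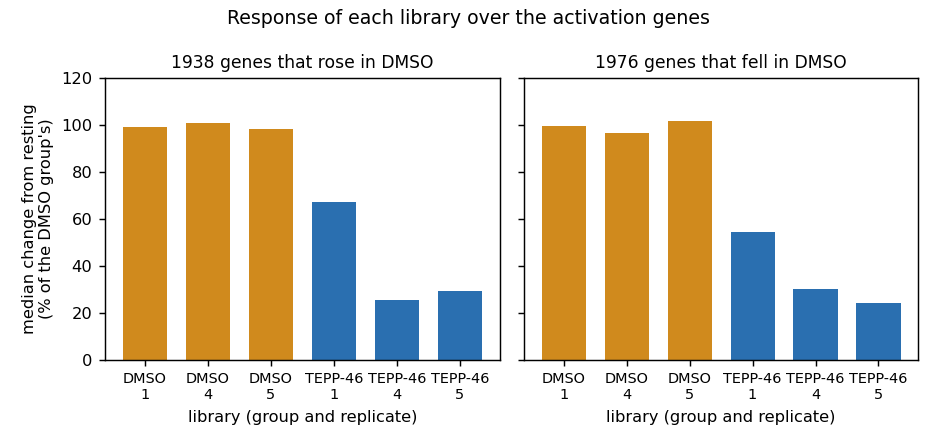
Bars show, for each DMSO and TEPP-46 library, the median log2 difference from the resting mean as a percentage of the DMSO group's median, over genes that rose (left, 1938) or fell (right, 1976) in DMSO. TEPP-46 replicate 1 reached 67.3% and 54.6%, and replicates 4 and 5 between 24.1% and 30%.

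Receptors and regulators of activated T cells were among the kept rises. Lag3, which encodes an inhibitory receptor that binds MHC class II (ENSMUSG00000030124.2, chromosome 6, 124904361 to 124911705, GRCm38), stood at 8.65, 21.1 and 16.4 CPM in resting and 968, 1322 and 1370.1 CPM in TEPP-46 libraries. Every TEPP-46 library was above every resting library by a wide margin, and Lag3 rose by 6.31 ± 0.38, adjusted p = 5.25e-05. Its change in DMSO was 5.80 ± 0.37, and the direct test did not call a difference (0.51 ± 0.30, adjusted p = 0.256). Il12rb2, the signalling chain of the interleukin-12 receptor (ENSMUSG00000018341.12, chromosome 6, 67291318 to 67376188), stood at 20.1, 4.23 and 2.81 CPM in resting and 1084, 291 and 539 CPM in TEPP-46 libraries and rose by 6.11 ± 0.79, adjusted p = 0.00224. Gzmb, the cytotoxic protease granzyme B, stood at 2.82, 5.55 and 3.25 CPM in resting, 411, 619 and 469 CPM in DMSO and 361, 48.7 and 54.4 CPM in TEPP-46 libraries. Gzmb thus rose against resting (5.34 ± 0.81, adjusted p = 0.00477), with TEPP-46 replicate 1 near the DMSO libraries and replicates 4 and 5 far below them. Tg, the thyroglobulin gene, rose by 7.29 ± 0.97, adjusted p = 0.0025 and stood at 5.43, 0.528 and 0.433 CPM in resting and 700.5, 103 and 257 CPM in TEPP-46 libraries. Ajuba, a LIM domain scaffold protein gene, stood at 0.201, 0.528 and 0.649 CPM in resting, 20.1, 22.3 and 24.2 CPM in DMSO and 37.7, 71 and 54 CPM in TEPP-46 libraries. It rose by 6.81 ± 0.44, adjusted p = 6.59e-05, and it lay above DMSO in the direct test (1.28 ± 0.30, adjusted p = 0.0212), a difference lost without DMSO replicates 1, 4 or 5 or TEPP-46 replicate 5 (highest adjusted p 0.0913). Galnt3, which starts O-linked glycosylation, had 3 counts over the resting libraries and 149 over the TEPP-46 libraries, a ratio of 73 (95% counting interval 24.5 to 358, which covers counting error only).

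Of 17 genes for costimulatory and inhibitory receptors, 8 rose and 1 fell, against 6.37% and 3.92% of all genes. Their median change was 1.10, beside 0.02 over all genes. The rises were Lag3, Cd200, Ctla4, Btla, Tnfrsf4, Tnfrsf9, Tnfrsf18 and Cd28, and the fall was Cd40lg. Without resting replicate 5 the list had 2 rises. Cd200, a ligand of an inhibitory receptor, stood at 14.5, 35.7 and 34.6 CPM in resting, 431, 466 and 294 CPM in DMSO and 172, 79 and 130.1 CPM in TEPP-46 libraries, rose by 2.17 ± 0.39, adjusted p = 0.00963 and was below DMSO (-1.64 ± 0.38, adjusted p = 0.0194), a difference lost without DMSO replicates 1 or 4 or TEPP-46 replicate 5 (highest adjusted p 0.0741). Tnfrsf4, the costimulatory receptor OX40, rose by 2.63 ± 0.49, adjusted p = 0.011, which was lost without resting replicate 5 (adjusted p = 0.0535). In the interleukin-2 receptor and STAT5 list, 6 of 17 genes rose, beside 6.37% of all genes, with a median of 0.64. The count was 3 without resting replicate 5. Il2ra, which encodes the chain that gives the interleukin-2 receptor its high affinity (CD25), stood at 28.6, 65.5 and 35.9 CPM in resting, 1449, 1656 and 1489 CPM in DMSO and 833, 274 and 311 CPM in TEPP-46 libraries. All TEPP-46 libraries lay between the resting and the DMSO libraries, and Il2ra rose by 3.45 ± 0.47, adjusted p = 0.00276. Against DMSO it stood at -1.70 ± 0.44, adjusted p = 0.0288, a difference lost without DMSO replicates 1, 4 or 5 or TEPP-46 replicates 4 or 5 (highest adjusted p 0.11). Jak3, the kinase of the receptor's common chain, stood at 66, 220.0 and 197 CPM in resting and 533, 751 and 739 CPM in TEPP-46 libraries and rose by 2.07 ± 0.39, adjusted p = 0.0116, leaving the kept class without DMSO replicates 4 or 5. Socs2, a feedback inhibitor of cytokine signalling, rose by 2.15 ± 0.38, adjusted p = 0.00893 and remained below DMSO (-2.31 ± 0.36, adjusted p = 0.00455). Among transcription factors, Tbx21, which encodes the Th1 factor T-bet, stood at 5.83, 14.3 and 18.2 CPM in resting and 309, 60.1 and 113 CPM in TEPP-46 libraries and rose by 3.66 ± 0.63, adjusted p = 0.00813. Runx3, its partner in Th1 cells, stood at 19.1, 43.3 and 34.4 CPM in resting, 138, 151 and 125 CPM in DMSO and 128, 179.8 and 133 CPM in TEPP-46 libraries and rose by 2.19 ± 0.30, adjusted p = 0.00272. Irf4 and Irf8, interferon regulatory factors of activated lymphocytes, rose by 3.22 ± 0.62, adjusted p = 0.012 and 3.27 ± 0.60, adjusted p = 0.0105, and both calls were lost without resting replicate 5 (adjusted p = 0.0573 and 0.0511). In all, 5 of 13 effector transcription factors rose, beside 6.37% of all genes, and 1 rose without resting replicate 5.

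**Figure D3:**
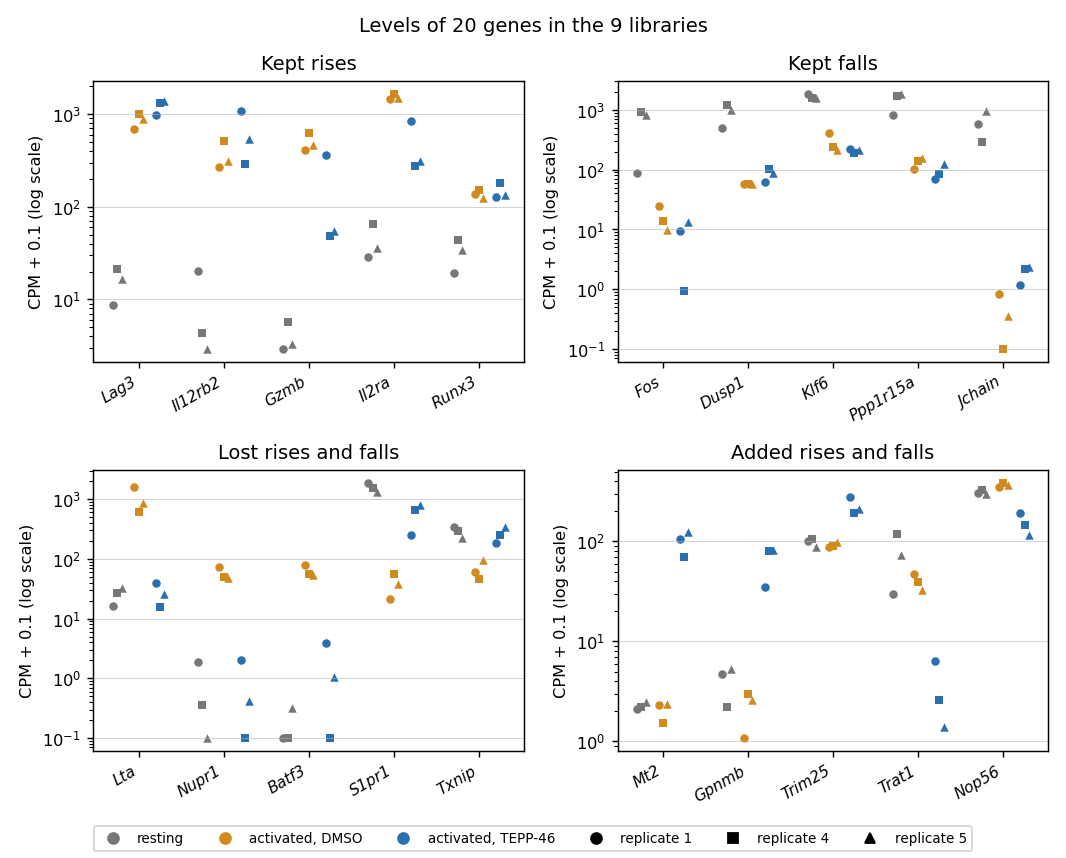
Levels of 20 genes in the 9 libraries, as CPM + 0.1 on a log axis, coloured by group with 1 symbol per replicate number. Kept genes lie away from the resting points in both activated groups, lost genes return toward them with TEPP-46, and added genes leave both groups with TEPP-46.

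The kept falls included immediate-early genes, negative feedback genes and immunoglobulin genes. Fos, a subunit of the transcription factor AP-1, stood at 89.1, 933 and 822 CPM in resting and 9.35, 0.84 and 13.3 CPM in TEPP-46 libraries and fell by 6.25 ± 0.98, adjusted p = 0.00542. Resting replicate 1 had the lowest Fos of its group, still above each TEPP-46 library. Dusp1, a phosphatase that switches off MAP kinases, stood at 503, 1203 and 996 CPM in resting and 63.3, 103 and 88 CPM in TEPP-46 libraries (-3.41 ± 0.34, adjusted p = 0.00074). Klf6, a zinc finger transcription factor gene, stood at 1816, 1559 and 1567 CPM in resting and 226, 192 and 212 CPM in TEPP-46 libraries (-2.97 ± 0.27, adjusted p = 0.000689). Ppp1r15a, a regulatory subunit that directs a phosphatase to the translation factor eIF2 alpha, stood at 836, 1685 and 1859 CPM in resting and 68.8, 83.6 and 123 CPM in TEPP-46 libraries (-3.99 ± 0.37, adjusted p = 0.000689). Of 23 immediate-early genes, 7 fell (Fos, Fosb, Jun, Junb, Dusp1, Klf6 and Cd69), beside 3.92% of all genes, with a list median of -0.66. All 7 had fallen in DMSO as well, where 10 fell and 4 rose, beside 15.8% and 15.5% of all genes. With TEPP-46, 0 rose in edgeR (4 at an unadjusted p below 0.05, 4 with DESeq2 and 0 with limma-voom). Without TEPP-46 replicate 1, 2 rose, and without resting replicate 1, 1 rose. The count of falls lay between 5 and 9 when single libraries were left out. Cd69, an early surface marker of activation, was the weakest of them (-1.64 ± 0.40, adjusted p = 0.0313), and its call was lost without resting replicates 4 or 5, DMSO replicates 1, 4 or 5 or TEPP-46 replicate 5 (highest adjusted p 0.105). Tnfaip3, which encodes the NF-kappaB inhibitor A20, stood at 1269, 1207 and 1025 CPM in resting, 87.3, 155 and 140.2 CPM in DMSO and 277, 302 and 409.9 CPM in TEPP-46 libraries. It fell against resting (-1.82 ± 0.26, adjusted p = 0.00358), less deeply than in DMSO by the direct test (1.37 ± 0.26, adjusted p = 0.00952). Nfkbid, a nuclear regulator of NF-kappaB, Tsc22d3, the glucocorticoid-induced leucine zipper gene, and Smad7, an inhibitor of TGF beta signalling, fell by 1.52 ± 0.22, 1.97 ± 0.27 and 1.76 ± 0.32 (adjusted p = 0.00353, 0.00275 and 0.00998). None of the 3 was called against DMSO.

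Heat shock genes were also among the falls. In the heat shock list 6 of 15 genes fell, beside 3.92% of all genes, with a median of -0.92, against -0.42 with DMSO. The count was 3 to 9 without single libraries. The chaperone Hsph1 stood at 227, 396 and 167 CPM in resting and 65.5, 89.1 and 53.7 CPM in TEPP-46 libraries (-1.93 ± 0.34, adjusted p = 0.00846). The co-chaperones Dnajb1 and Dnaja1 fell by 1.68 ± 0.29 and 1.21 ± 0.20 (adjusted p = 0.00833 and 0.00632). In DMSO these genes fell by 1.57 ± 0.33, 1.38 ± 0.29 and 1.16 ± 0.20, and none of them was called in the direct test. Dnajb9, a chaperone gene of the endoplasmic reticulum, fell by 2.66 ± 0.33, adjusted p = 0.00179.

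Immunoglobulin genes made up 75 of the 340 kept falls (22.1%), which left 265 others. Of 87 immunoglobulin genes tested, 75 fell, with a median of -5.67. Their summed level was 6288, 3922 and 9638 CPM in resting and 872, 1241 and 732 CPM in TEPP-46 libraries, above the 232 to 249 CPM of DMSO libraries. The B cell marker Ms4a1 gave 10, 70 and 21 counts in resting, 1, 6 and 1 in DMSO and 5, 108 and 31 in TEPP-46 libraries. In these bulk samples, fewer B-lineage cells and less RNA per cell cannot be told apart. Jchain, the chain that joins secreted antibodies, stood at 590.4, 288 and 961 CPM in resting and 1.1, 2.1 and 2.26 CPM in TEPP-46 libraries (-8.41 ± 0.62, adjusted p = 0.000168). Igha, the IgA heavy chain, gave 14136 counts over the resting and 3 over the TEPP-46 libraries, a ratio of 3210 (95% counting interval 1100 to 15600). Immunoglobulin segments share sequence, so single members are uncertain. Other deep kept falls were in low-level genes. Slc16a5, a monocarboxylate transporter, stood at 2.82, 77.1 and 83.7 CPM in resting and 0.275, 0.84 and 0.324 CPM in TEPP-46 libraries (-6.84 ± 1.27, adjusted p = 0.0109), with resting replicate 1 far below the other resting libraries. Cnga1, a cyclic nucleotide gated channel gene, stood at 13.5, 16.1 and 18.6 CPM in resting and 0.55, 0 and 1.29 CPM in TEPP-46 libraries (-4.56 ± 0.78, adjusted p = 0.0079). Prg2, an eosinophil granule protein gene, gave 160 counts over the resting and 2 over the TEPP-46 libraries (ratio 54.5, 14.8 to 453).

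Part of the glycolytic rise was kept, and 7 of the 10 kept genes were lower than with DMSO. Of 24 glycolysis genes, 10 rose under TEPP-46 and the remaining 14 did not pass, against 21 rises with DMSO, and the median change was 1.22 against 2.18. All 10 had also risen in DMSO. In the direct test 8 of the 24 were lower than in DMSO, 7 of them kept rises and the other, Slc16a1, a lost rise. Without TEPP-46 replicate 1 the median was 0.65. The number of rises lay between 4 (without any of the resting libraries) and 16 (without TEPP-46 replicate 4), and it was 5 without any of the DMSO libraries. Slc2a3, the glucose transporter GLUT3, stood at 63.6, 88.5 and 120.5 CPM in resting, 1109, 1505 and 1155 CPM in DMSO and 362, 337 and 342 CPM in TEPP-46 libraries. The TEPP-46 libraries were close to each other and lay between both other groups, so that Slc2a3 rose by 1.93 ± 0.26, adjusted p = 0.00256 and stood -1.86 ± 0.26 against DMSO (adjusted p = 0.00288). Hk2, the hexokinase of the first step, stood at 4.83, 1.32 and 1.73 CPM in resting, 117, 104 and 97.3 CPM in DMSO and 31.4, 21.8 and 12.6 CPM in TEPP-46 libraries (3.02 ± 0.48, adjusted p = 0.00543 against resting, -2.27 ± 0.42, adjusted p = 0.00865 against DMSO). Eno2, an enolase gene, rose by 2.89 ± 0.45, adjusted p = 0.00515 and stood -2.35 ± 0.37 against DMSO (adjusted p = 0.00469). Slc16a3, a lactate exporter, stood at 38.8, 7.13 and 8.22 CPM in resting, 211, 319 and 234 CPM in DMSO and 355, 127 and 168 CPM in TEPP-46 libraries. It rose by 3.57 ± 0.65, adjusted p = 0.00984 and was not called against DMSO. Pkm, the gene of the drug's target, stood at 997, 1419 and 1310.1 CPM in resting, 4205, 5420.4 and 5029.7 CPM in DMSO and 4994, 1549 and 2212 CPM in TEPP-46 libraries. TEPP-46 replicate 1 was within the DMSO range and replicates 4 and 5 were closer to resting, and Pkm was not called (1.23 ± 0.39, adjusted p = 0.0715). Without TEPP-46 replicate 4 Pkm was called as a rise (adjusted p = 0.0203), and without replicate 1 it was called below DMSO (adjusted p = 0.00334). Summed glycolysis levels were 3693, 5606 and 5273 CPM in resting and 18935, 6109.6 and 8538 CPM in TEPP-46 libraries.

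Hypoxia response genes, which include targets of the transcription factor HIF-1, rose in 3 of 17 cases (Egln3, Ddit4 and Plod2), beside 6.37% of all genes. With DMSO 14 rose, beside 15.5% of all genes, and 6 of these were lost, beside 471 of the 1938 rises over all genes. The count with TEPP-46 was 1 without resting replicate 5 and 8 without TEPP-46 replicate 4. The list median with TEPP-46, 0.88, was 0.39 without TEPP-46 replicate 1. Hif1a, the oxygen-regulated subunit itself, stood at 376, 239 and 190.2 CPM in resting, 645, 1087 and 812 CPM in DMSO and 2592, 1021 and 2172 CPM in TEPP-46 libraries. It rose by 2.84 ± 0.40, adjusted p = 0.00316, and the direct test against DMSO gave 1.18 ± 0.38, adjusted p = 0.0563. Ddit4, an inhibitor of mTORC1, rose by 2.89 ± 0.46, adjusted p = 0.00562. Egln3, a prolyl hydroxylase that HIF-1 induces, stood at 4.43, 1.32 and 3.03 CPM in resting, 166, 204 and 160.3 CPM in DMSO and 29.2, 9.66 and 11.6 CPM in TEPP-46 libraries and was far below DMSO (-3.37 ± 0.44, adjusted p = 0.00252). Its rise against resting (2.50 ± 0.49, adjusted p = 0.0126) was lost without resting replicate 5 (adjusted p = 0.0535). Bnip3, a mitophagy receptor gene, was among the lost rises (1.85 ± 0.54, adjusted p = 0.0563 against resting, -1.97 ± 0.53, adjusted p = 0.0321 against DMSO), and it left that class without DMSO replicates 1, 4 or 5 or TEPP-46 replicates 4 or 5. Of 28 cholesterol and fatty acid synthesis genes, 3 rose with TEPP-46 and 19 with DMSO, beside 6.37% and 15.5% of all genes. Scd2, a stearoyl-CoA desaturase, stood at 31.4, 32.5 and 34.2 CPM in resting, 659.8, 473 and 671 CPM in DMSO and 756, 245 and 344 CPM in TEPP-46 libraries and rose by 3.78 ± 0.40, adjusted p = 0.00109. The fatty acid elongase Elovl6 rose by 2.35 ± 0.37, adjusted p = 0.00542. Scd1 rose by 3.65 ± 0.80, adjusted p = 0.0197, lost without resting replicates 1 or 5 (highest adjusted p 0.0808). The list had 8 rises without TEPP-46 replicate 4 and 2 without resting replicate 1 or 5.

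**Figure D4:**
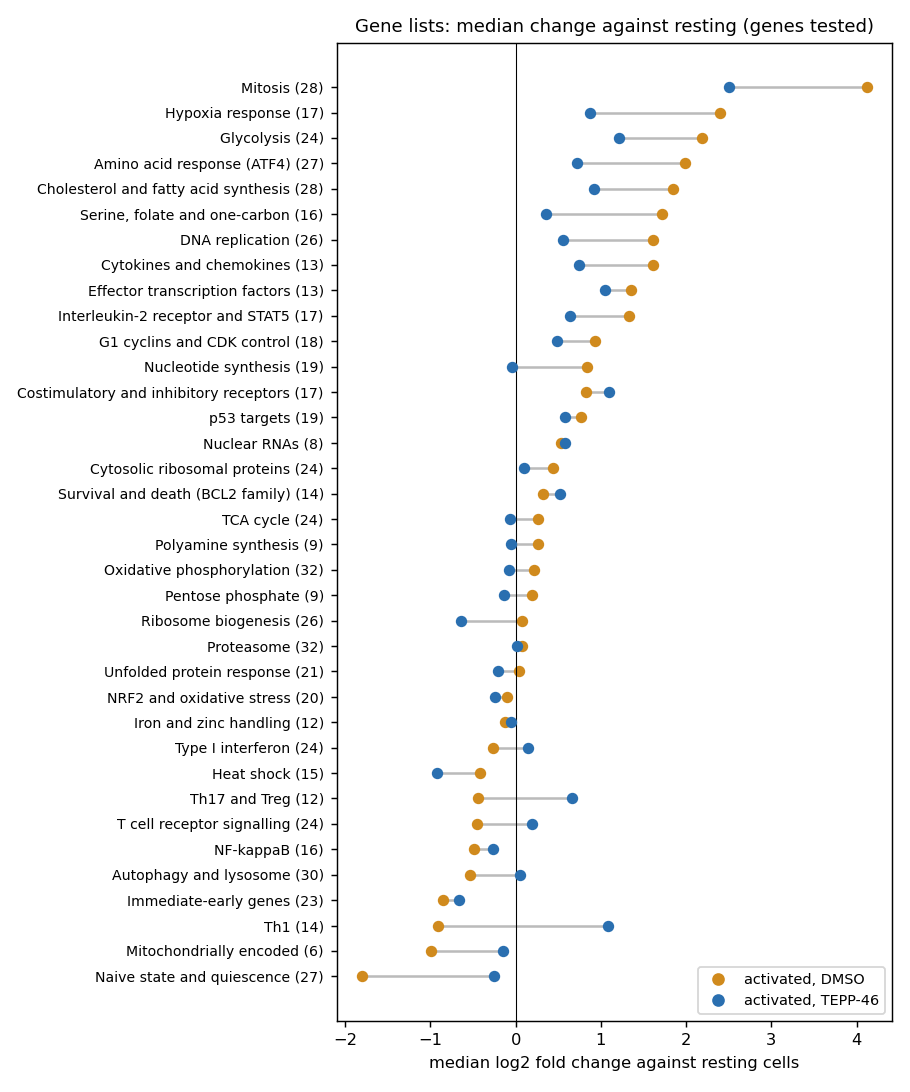
Median log2 fold change against resting cells over each of 36 gene lists, with DMSO and with TEPP-46, and the number of genes tested in parentheses. With TEPP-46 the medians of mitosis (2.51), glycolysis (1.22) and hypoxia genes (0.88) lie below those with DMSO (4.12, 2.18 and 2.40), and that of naive genes (-0.25) lies above (-1.80).

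Cell division genes differed between the TEPP-46 libraries. The 28 mitosis genes summed to 427, 478 and 418 CPM in resting, 4909, 5947 and 6535 CPM in DMSO and 4375, 669 and 633 CPM in TEPP-46 libraries. Replicate 1 was thus just below the DMSO libraries, while replicates 4 and 5 were closer to resting. The list median was 2.51 with 8 rises, all of them kept, against 26 rises and a median of 4.12 with DMSO. Without TEPP-46 replicate 1 the median was 0.47. In edgeR 24 of the 28 genes rose at an unadjusted p below 0.05, and 15 were called as rises by DESeq2 and 0 by limma-voom. EdgeR called 0 rises without resting replicate 1 or 5 and in the fit of the 6 libraries alone. Without resting replicate 4 there was 1, without DMSO replicates 1, 4 and 5 there were 4, 3 and 3, and without TEPP-46 replicate 4 or 5 there were 21 or 13. Mki67, the proliferation marker Ki-67, stood at 11.1, 10.8 and 11.5 CPM in resting, 295, 330.3 and 309 CPM in DMSO and 188, 33.6 and 25.6 CPM in TEPP-46 libraries (2.89 ± 0.65, adjusted p = 0.0218), a rise lost without resting replicates 1, 4 or 5 (highest adjusted p 0.0828). Of 26 DNA replication genes 0 were called in edgeR (7 at an unadjusted p below 0.05, 1 with DESeq2 and 0 with limma-voom), against 15 rises in DMSO. Their summed levels were 3945, 1175 and 1027 CPM in TEPP-46 and 1692, 1495 and 1450.5 CPM in resting libraries, so replicate 1 was above and replicates 4 and 5 below the resting libraries. Without TEPP-46 replicate 1, 6 of the 26 fell and the median was -0.41, while without replicate 4 or 5, 3 or 2 rose, with medians of 0.81 and 0.87.

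Amino acid response genes, which are induced by the transcription factor ATF4 when amino acids are short or the endoplasmic reticulum is stressed, included 10 lost rises. With TEPP-46, 3 of 27 rose (Slc7a3, Vldlr and Wars) and 1 fell (Ppp1r15a, described above), beside 6.37% and 3.92% of all genes. With DMSO 20 rose, beside 15.5% of all genes. Of those 20, 10 were lost, beside 471 of the 1938 rises with DMSO over all genes. Another 2 were kept and 8 could be assigned to neither class. The lost rises included the serine synthesis gene Phgdh, the amino acid transporters Slc7a1 and Slc7a5, and 3 aminoacyl-tRNA synthetase genes (Aars, Cars and Sars). Asns, which encodes asparagine synthetase, stood at 17.5, 5.81 and 9.09 CPM in resting, 381, 265 and 229.9 CPM in DMSO and 128, 9.24 and 9.38 CPM in TEPP-46 libraries. TEPP-46 replicates 4 and 5 were within the resting range and replicate 1 was above it, and Asns was not called against resting (2.18 ± 0.89, adjusted p = 0.151) or DMSO (-2.56 ± 0.86, adjusted p = 0.0672). The 3 rises were 0 without resting replicate 4 or 5 and 7 without TEPP-46 replicate 4. Of 16 serine, folate and one-carbon genes, 0 rose in edgeR (3 at an unadjusted p below 0.05, 2 with DESeq2 and 0 with limma-voom) and 1 fell, against 10 rises with DMSO. Without TEPP-46 replicate 1, 3 fell, and without TEPP-46 replicate 4 or 5, 2 rose.

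The largest lost rises came from genes that were nearly silent or low in resting cells. Lta, which encodes the cytokine lymphotoxin alpha (ENSMUSG00000024402.5, chromosome 17, 35203165 to 35205351), stood at 16.3, 27.2 and 32.2 CPM in resting, 1595, 607 and 866 CPM in DMSO and 38.8, 15.5 and 26.2 CPM in TEPP-46 libraries. With TEPP-46 it overlapped the resting libraries and lay far below DMSO (-5.24 ± 0.49, adjusted p = 0.000736), and the change against resting was 0.10 ± 0.43, adjusted p = 0.907. Nupr1, a stress-induced transcriptional regulator gene, stood at 1.81, 0.264 and 0 CPM in resting, 73.8, 49 and 48.4 CPM in DMSO and 1.93, 0 and 0.324 CPM in TEPP-46 libraries (-6.02 ± 0.85, adjusted p = 0.00315 against DMSO). Fibcd1, a receptor gene for acetylated sugars, gave 145 counts over the DMSO and 2 over the TEPP-46 libraries, a ratio of 54.1 (95% counting interval 14.7 to 451). These 3 genes stayed in the lost class without each library in turn. Batf3, a basic leucine zipper factor gene, stood at 0, 0 and 0.216 CPM in resting, 78.7, 56.6 and 54.2 CPM in DMSO and 3.85, 0 and 0.971 CPM in TEPP-46 libraries (-5.14 ± 0.68, adjusted p = 0.00252 against DMSO) and left the class without TEPP-46 replicate 4. Smtnl2, a smoothelin-like gene, gave 168 counts over the DMSO and 3 over the TEPP-46 libraries (ratio 41.8, 14.1 to 205) and left the class without DMSO replicate 5. Prkar1b, a regulatory subunit of protein kinase A, gave 155 and 3 counts (ratio 38.5, 12.9 to 189) and left it without DMSO replicates 4 or 5 or TEPP-46 replicate 5. Myc, the growth regulator, stood at 59.9, 299 and 188 CPM in resting, 977, 523 and 512 CPM in DMSO and 291, 70.6 and 84.8 CPM in TEPP-46 libraries, with -0.29 ± 0.62, adjusted p = 0.812 against resting and -2.17 ± 0.65, adjusted p = 0.0455 against DMSO. Its place among the lost rises did not hold without resting replicates 1, 4 or 5, DMSO replicates 1, 4 or 5 or TEPP-46 replicates 4 or 5.

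Naive-state genes were the main list among the lost falls. Of 27, 7 fell and 1 rose with TEPP-46, against 19 falls with DMSO, and the median was -0.25 against -1.80. Falls made up 3.92% of all genes with TEPP-46 and 15.8% with DMSO. The list had 4 falls without resting replicate 4 and 5 without resting replicate 5, and its median was -0.02 without TEPP-46 replicate 1. The list held 13 lost falls, beside 730 of the 1976 falls with DMSO over all genes. The 13 included S1pr1, Klf2, Il7r, Il6st, Tcf7, Lef1, Slfn2, Btg2, Pik3ip1, Txnip, Gimap4 and Gimap6. S1pr1, the receptor that lets T cells leave lymphoid organs (ENSMUSG00000045092.8, chromosome 3, 115710433 to 115715072), stood at 1883, 1539 and 1301 CPM in resting, 21.6, 55.2 and 37.6 CPM in DMSO and 248, 653 and 786 CPM in TEPP-46 libraries. The TEPP-46 libraries lay between both groups, with -1.49 ± 0.43, adjusted p = 0.0534 against resting and 3.88 ± 0.48, adjusted p = 0.00209 against DMSO. Txnip, an arrestin-like inhibitor of glucose uptake, stood at 336, 289 and 224 CPM in resting, 59.6, 45.8 and 96.8 CPM in DMSO and 186, 255 and 341 CPM in TEPP-46 libraries and overlapped the resting libraries (1.95 ± 0.33, adjusted p = 0.00606 against DMSO). S1pr1 and Txnip stayed in the lost class without each library in turn. Il7r, the survival cytokine receptor of naive T cells, stood at 670.5, 348 and 397 CPM in resting, 62.8, 104 and 93 CPM in DMSO and 216, 237 and 403 CPM in TEPP-46 libraries (1.72 ± 0.34, adjusted p = 0.0109 against DMSO) and left the class without DMSO replicates 1 or 5. Klf2, the transcription factor that drives S1pr1, stood at 847, 1573 and 4083 CPM in resting, 39.2, 160.1 and 91 CPM in DMSO and 594, 965 and 188 CPM in TEPP-46 libraries (2.59 ± 0.73, adjusted p = 0.0386) and left it without resting replicate 4, DMSO replicates 1, 4 or 5 or TEPP-46 replicate 4. The falls that were kept in this list were those of Klf3, Il6ra, Tob1, Tsc22d3, Rasgrp2 and Tdrp. Bach2, a repressor that restrains effector differentiation, stood at 208, 98 and 169 CPM in resting, 156, 196 and 123 CPM in DMSO and 342, 736 and 511 CPM in TEPP-46 libraries and was an added rise (1.74 ± 0.35, adjusted p = 0.0141 against resting), but not without resting replicates 4 or 5 or DMSO replicates 1 or 5. Summed naive-state levels were 17624, 20192 and 19493 CPM in TEPP-46, 20629, 19949 and 25056 CPM in resting and 7542, 8731 and 7653 CPM in DMSO libraries.

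By the size of the difference from DMSO, the lost falls also held genes of interferon response and of other cells. Ifit1bl1, a gene of the interferon-induced Ifit family with near-identical copies, stood at 44.7, 58.1 and 57.1 CPM in resting, 0.245, 0.96 and 0.252 CPM in DMSO and 30.5, 52.5 and 34.3 CPM in TEPP-46 libraries (6.22 ± 0.47, adjusted p = 0.000293 against DMSO). Ifi213, of the interferon-inducible Ifi200 family, stood at 24.1, 113 and 82.6 CPM in resting, 0.491, 0.24 and 0.504 CPM in DMSO and 30.3, 35.7 and 31.4 CPM in TEPP-46 libraries (6.20 ± 0.68, adjusted p = 0.00153) and left the class without resting replicate 1. Mpo, the myeloperoxidase gene of granulocyte precursors, gave 3, 205 and 6 counts in TEPP-46 replicates 1, 4 and 5 and 0 in the DMSO libraries, at least 95.6-fold higher with a floor of 3 counts over the DMSO group. In the same replicate 4 the neutrophil genes Elane and Ngp gave 106 and 101 counts, and S100a8 and Camp gave 0. The place of Mpo in the class did not hold without resting replicates 1, 4 or 5, DMSO replicates 1, 4 or 5 or TEPP-46 replicates 4 or 5. Mef2c, a transcription factor gene expressed in B and myeloid cells, stood at 1.93, 82.8 and 7.44 CPM in TEPP-46 libraries, highest in the same replicate, and left the class without resting replicate 4 or DMSO replicates 1, 4 or 5. Ms4a1 counts, given above, were highest there as well. Klrd1, the NK receptor chain CD94, gave 130 counts over the TEPP-46 and 1 over the DMSO libraries (ratio 174, 30.7 to 6940) and left the class without TEPP-46 replicate 4. By library it gave 28, 18 and 24 counts in resting and 40, 11 and 79 in TEPP-46. The other NK markers did not share this pattern. Klrb1c gave 14, 12 and 49 counts in resting and 0 in each TEPP-46 library, and Ncr1 at most 3 in any library. Eomes gave 37, 42 and 60 in resting and 39, 0 and 7 in TEPP-46 libraries, and Nkg7 gave 55, 260 and 367 and 240, 137 and 165. Zscan10, a zinc finger gene, gave 210 and 3 counts (ratio 93.8, 31.7 to 459) and left it without TEPP-46 replicate 1.

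The metallothionein genes Mt1 and Mt2 stood out among the rises that differed from DMSO. Metallothioneins are small cysteine-rich proteins that bind zinc and copper and whose genes are switched on by the metal sensor MTF-1 through metal response elements. The promoters of both genes, which neighbour each other on chromosome 8, are shown because both genes rose together. They span 250 bases before to 50 after the start in RefSeq's annotation (GRCm38.p6), both on the plus strand, Mt1 at chr8:94178839-94179138 and Mt2 at chr8:94172368-94172667. Capitals mark each match to TGCGCNC, 1 form of the core of the metal response element, searched on both strands. The form with A in place of G, TGCACNC, was not searched and stays in lower case, though both windows hold it.
Mt1: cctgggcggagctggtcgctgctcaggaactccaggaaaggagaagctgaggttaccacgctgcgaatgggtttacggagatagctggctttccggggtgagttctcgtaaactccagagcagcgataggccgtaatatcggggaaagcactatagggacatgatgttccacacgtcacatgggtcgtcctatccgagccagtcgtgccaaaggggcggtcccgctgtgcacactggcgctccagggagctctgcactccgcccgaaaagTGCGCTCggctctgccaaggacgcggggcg
Mt2: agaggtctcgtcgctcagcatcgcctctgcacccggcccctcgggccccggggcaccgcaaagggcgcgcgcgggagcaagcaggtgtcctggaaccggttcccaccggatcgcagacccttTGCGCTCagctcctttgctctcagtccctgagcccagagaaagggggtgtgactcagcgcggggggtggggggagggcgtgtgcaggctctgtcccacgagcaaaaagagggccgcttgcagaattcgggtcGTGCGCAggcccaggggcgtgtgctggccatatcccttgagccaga
In the window of Mt1 the match began 20 bases after the start. Those in the window of Mt2 began 128 bases before and 4 bases after it. The window of Mt1 thus held 1 match to TGCGCNC and that of Mt2 held 2, while 15.4% of 32851 promoters in the table held at least 1 and 4.2% at least 2. These counts and shares are for that form only and not for the whole element. The window of Slc30a1 (described below), which was not called against resting, also held 1 match. A match describes letters and not a bound site.

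Mt2 (ENSMUSG00000031762.6, chromosome 8, 94172664 to 94173568) stood at 2.01, 2.11 and 2.38 CPM in resting, 2.21, 1.44 and 2.27 CPM in DMSO and 107, 69.7 and 125 CPM in TEPP-46 libraries. Every TEPP-46 library was more than an order of magnitude above every other library. Mt2 rose by 5.51 ± 0.34, adjusted p = 5.25e-05 against resting and by 5.65 ± 0.34, adjusted p = 4.82e-05 against DMSO, and it stayed an added rise without each library in turn. Mt1 (ENSMUSG00000031765.7, chromosome 8, 94179082 to 94180327) stood at 20.7, 5.28 and 9.3 CPM in resting, 25, 27.1 and 32.3 CPM in DMSO and 336, 234 and 422 CPM in TEPP-46 libraries. It rose by 4.79 ± 0.46, adjusted p = 0.000689 against resting and lay above DMSO (3.55 ± 0.43, adjusted p = 0.00206). Because it also rose in DMSO (1.24 ± 0.42, adjusted p = 0.0461), Mt1 counted among the 16 kept rises above DMSO, a class it left without resting replicates 4 or 5, DMSO replicates 1, 4 or 5 or TEPP-46 replicate 5. Slc30a1, a zinc exporter gene that is another target of MTF-1, stood at 12.3, 3.43 and 6.06 CPM in resting, 1.23, 0.96 and 0.756 CPM in DMSO and 4.4, 5.88 and 9.06 CPM in TEPP-46 libraries. It was not called against resting (-0.18 ± 0.52, adjusted p = 0.861), and it was a lost fall, higher than in DMSO (2.67 ± 0.62, adjusted p = 0.0194) except without DMSO replicates 1, 4 or 5 or TEPP-46 replicate 5. In the list of 12 iron and zinc genes, 3 rose, Mt1, Mt2 and the transferrin receptor Tfrc, and 1 fell, the ferritin gene Ftl1, beside 6.37% and 3.92% of all genes. With DMSO 3 rose and 2 fell, beside 15.5% and 15.8% of all genes. The fall of Ftl1 was lost without resting replicate 5 and in the fit of the 6 libraries alone (highest adjusted p 0.0779). Tfrc rose by 1.63 ± 0.42, adjusted p = 0.035, lost without resting replicates 1, 4 or 5, DMSO replicates 1, 4 or 5 or TEPP-46 replicate 1 (highest adjusted p 0.105).

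Several other added rises held without each library. Gpnmb, a transmembrane glycoprotein gene known from macrophages and melanocytes (ENSMUSG00000029816.10, chromosome 6, 49036546 to 49070929), stood at 4.63, 2.11 and 5.19 CPM in resting, 0.981, 2.88 and 2.52 CPM in DMSO and 34.7, 79.8 and 81.9 CPM in TEPP-46 libraries and rose by 4.01 ± 0.49, adjusted p = 0.00179 against resting and by 4.92 ± 0.53, adjusted p = 0.00139 against DMSO. Serpinb9b, a serine protease inhibitor gene related to the granzyme B inhibitor, gave 96 counts over the TEPP-46 libraries and 1 over the resting libraries (ratio 141, 95% counting interval 24.7 to 5630). Trim25, a ubiquitin ligase of antiviral signalling, stood at 102, 105 and 87.2 CPM in resting, 87.3, 90 and 98.8 CPM in DMSO and 277, 194 and 211 CPM in TEPP-46 libraries. It rose by 1.22 ± 0.20, adjusted p = 0.00632 against resting and by 1.30 ± 0.20, adjusted p = 0.00437 against DMSO. Ccl22, a chemokine that attracts CCR4-bearing T cells, stood at 0.603, 0 and 0.216 CPM in resting, 1.72, 1.44 and 1.01 CPM in DMSO and 15.1, 30.7 and 27.8 CPM in TEPP-46 libraries and rose by 6.23 ± 0.67, adjusted p = 0.00109. It left the class without resting replicate 1 or TEPP-46 replicates 1 or 4. Eml1, a microtubule-binding protein gene, stood at 1.61, 0 and 0 CPM in resting, 0.736, 3.84 and 3.53 CPM in DMSO and 45.9, 18.9 and 59.9 CPM in TEPP-46 libraries and left the class without resting replicate 1, DMSO replicates 1, 4 or 5 or TEPP-46 replicate 5. Rn7sk, a small nuclear RNA gene with many copies in the genome, stood at 5.03, 0.264 and 1.3 CPM in resting, 1.23, 12.2 and 4.54 CPM in DMSO and 24.5, 101 and 142 CPM in TEPP-46 libraries. It was highest in replicates 4 and 5, the libraries whose nuclear RNAs summed to 13030 and 13567 CPM, and left the class without resting replicate 5, DMSO replicates 1 or 5 or TEPP-46 replicate 5. Pf4 and Timp3 had the largest added rises. Pf4, the platelet factor 4 gene, stood at 0.201, 0.528 and 0 CPM in resting and 9.08, 154 and 45.6 CPM in TEPP-46 libraries and Timp3, a metalloproteinase inhibitor gene, at 0.201, 0 and 0 CPM in resting and 2.75, 64.3 and 15.2 CPM in TEPP-46 libraries. Both were highest in TEPP-46 replicate 4 and lowest in replicate 1, the order of the summed platelet and red cell markers (270, 84.1 and 16.7 CPM in replicates 4, 5 and 1). Pf4 is itself a large part of that sum, so its order is not separate from that of the sum, while Timp3 is not in it. Of the 151 added rises, 145 had all TEPP-46 libraries above all resting and DMSO libraries. Added rises were chosen by tests on these same libraries, so such a separation follows largely from the choice. Over all genes and in either direction, the libraries did not overlap in 26.8% between TEPP-46 and resting and in 39.7% between TEPP-46 and DMSO. These shares are for each pair alone and not for both at once.

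Several interferon-inducible GTPases, which act against microbes inside cells, rose under TEPP-46. The family was picked out after its values were seen, by the gene symbols of guanylate-binding proteins and immunity-related GTPases, so its counts are a description. Of 17 tested, 12 rose against resting and 5 did not pass (Gbp3, Gbp7, Gbp8, Gbp11 and Irgm1), beside rises in 6.37% of all genes, with a median of 1.88, while in DMSO 2 rose and 5 fell, with a median of -0.31. In the direct test 14 were higher than in DMSO. Rises against resting numbered 5 without resting replicate 5, 6 without resting replicate 4 and 8 in the fit of the 6 libraries alone, and 8 were higher than in DMSO without DMSO replicate 4 or 5. Iigp1 stood at 37.4, 46.2 and 27.5 CPM in resting, 93.2, 46.1 and 47.4 CPM in DMSO and 894, 252 and 352 CPM in TEPP-46 libraries and rose by 3.76 ± 0.51, adjusted p = 0.00271. Gbp6 stood at 18.5, 40.7 and 29.4 CPM in resting, 26.5, 30 and 31.3 CPM in DMSO and 177, 100 and 119 CPM in TEPP-46 libraries and rose by 2.16 ± 0.32, adjusted p = 0.00377. Both stayed added rises without each library in turn. Gbp10 (3.85 ± 0.50), Gbp2 (2.52 ± 0.45), Irgm2 (2.12 ± 0.40), Tgtp1 (2.01 ± 0.45) and Gvin1 (1.88 ± 0.52) were added rises as well. Gbp10 left the class without TEPP-46 replicate 1, Gbp2 without DMSO replicates 4 or 5, Irgm2 without resting replicates 4 or 5 or DMSO replicates 4 or 5, Tgtp1 without resting replicates 4 or 5 or TEPP-46 replicate 1 and Gvin1 without resting replicates 1, 4 or 5, DMSO replicates 1, 4 or 5 or TEPP-46 replicates 4 or 5. Gbp5 and Igtp were kept rises, and that of Gbp5 was lost without resting replicates 4 or 5 (highest adjusted p 0.0652). Tgtp2, Gbp4 and Gbp9 rose with TEPP-46 and fell with DMSO. Tgtp2 stood at 119.7, 139 and 122 CPM in resting, 68.2, 39.4 and 21.7 CPM in DMSO and 469.7, 442 and 388 CPM in TEPP-46 libraries, so that the TEPP-46 libraries were above the resting and the DMSO libraries below them. Its change was 1.77 ± 0.34, adjusted p = 0.012 with TEPP-46, lost without resting replicate 5 (adjusted p = 0.0539), and -1.55 ± 0.34, adjusted p = 0.00748 with DMSO. Tgtp1 and Tgtp2 are near-identical copies, so the split of reads between them is uncertain. The rise of Gbp4 was lost without resting replicates 4 or 5 or DMSO replicate 5 (highest adjusted p 0.113), and that of Gbp9 without resting replicates 1, 4 or 5, DMSO replicates 1, 4 or 5 or TEPP-46 replicate 5 (highest adjusted p 0.107). Gbp8 and Gbp11 were called in none of the comparisons.

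**Figure D5:**
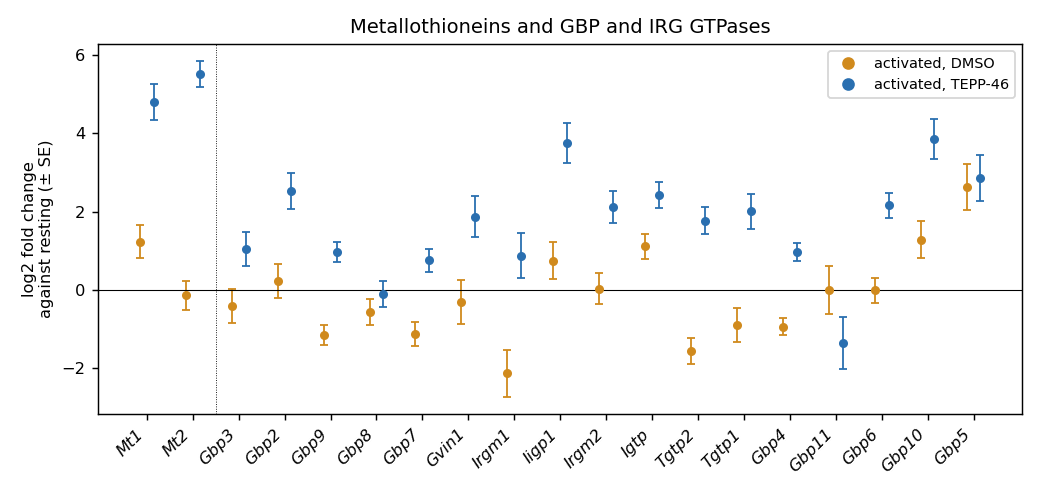
Log2 fold change against resting cells (± standard error) of Mt1, Mt2 and the 17 GTPase genes, with DMSO and with TEPP-46. Points with TEPP-46 lie above those with DMSO for each gene except Gbp11.

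The promoters of Gbp2 and Tgtp2 show letters of the interferon-stimulated response element, a sequence that interferon regulatory factors bind. Windows are as above, Gbp2 at chr3:142620413-142620712 on the plus strand and Tgtp2 at chr11:49064163-49064462 on the minus strand, printed in the direction of the gene. Capitals mark the motif's core, GAAA and GAAA with 2 bases of any kind between them, on either strand, which 3.44% of the 32851 promoters held.
Gbp2: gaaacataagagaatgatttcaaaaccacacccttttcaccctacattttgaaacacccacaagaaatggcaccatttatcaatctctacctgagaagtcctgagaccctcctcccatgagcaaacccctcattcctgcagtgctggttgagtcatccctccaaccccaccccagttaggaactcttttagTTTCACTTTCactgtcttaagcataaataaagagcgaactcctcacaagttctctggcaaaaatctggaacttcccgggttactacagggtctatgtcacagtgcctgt
Tgtp2: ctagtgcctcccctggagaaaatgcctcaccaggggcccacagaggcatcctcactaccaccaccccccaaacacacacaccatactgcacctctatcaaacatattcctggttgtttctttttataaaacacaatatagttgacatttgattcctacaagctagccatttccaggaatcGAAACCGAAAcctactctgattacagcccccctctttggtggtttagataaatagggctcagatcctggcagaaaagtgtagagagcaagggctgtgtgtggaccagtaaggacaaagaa
Each window held 1 match, at 59 and 70 bases before the start. Only these promoters of the family were looked at singly, so whether the motif goes with the rises was not tested.

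In the type I interferon list, which held no GTPase of this family, 3 of 24 genes rose, Stat2 and Trim25 among them, with a median of 0.14, beside rises in 6.37% of all genes. The median was -0.52 with 2 falls without TEPP-46 replicate 1, -0.22 without resting replicate 1 and 0.49 without resting replicate 4. In DMSO 7 fell, beside 15.8% of all genes, and 5 of these were lost (Ifit2, Ifit3, Irf9, Rtp4 and Ddx58), beside 730 of the 1976 falls over all genes. The 3 rises were called without each library in turn. Of 14 Th1 genes, 6 rose with TEPP-46 (Tbx21, Il12rb1, Il12rb2, Runx3 and Stat4 among them) and 1 fell (Il18r1), with a median of 1.08. Over all genes, 6.37% rose and 3.92% fell. Of the 14 Th1 genes, 4 rose and 6 fell in DMSO, with a median of -0.91, beside 15.5% and 15.8% of all genes. Ifng, the Th1 cytokine interferon gamma, stood at 7.24, 12.7 and 10.4 CPM in resting, 3.19, 0.96 and 1.51 CPM in DMSO and 4.13, 0 and 0.971 CPM in TEPP-46 libraries and was not called with TEPP-46 (-2.44 ± 0.81, adjusted p = 0.0848).

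Added falls were fewer than added rises and included ribosome biogenesis genes. Trat1, an adaptor that stabilises the T cell receptor complex (ENSMUSG00000030775.9, chromosome 16, 48730774 to 48772021), stood at 29.8, 118 and 73.1 CPM in resting, 47.6, 39.4 and 32.8 CPM in DMSO and 6.33, 2.52 and 1.29 CPM in TEPP-46 libraries. It fell by 4.38 ± 0.61, adjusted p = 0.00308 against resting and fell by 3.50 ± 0.60, adjusted p = 0.00678 against DMSO. Camkk1, a kinase of calcium signalling, stood at 18.5, 15.3 and 15.1 CPM in resting, 17.2, 12.5 and 14.1 CPM in DMSO and 1.65, 0 and 2.91 CPM in TEPP-46 libraries (-3.33 ± 0.61, adjusted p = 0.0104). Neither gene belongs to the list of 24 T cell receptor signalling genes, of which 3 rose (Ptpn22, Dgkz and Cblb) and 0 fell in edgeR (4 at an unadjusted p below 0.05, 1 with DESeq2 and 0 with limma-voom). Rises made up 6.37% and falls 3.92% of all genes. In this list 3 fell without resting replicate 1. Both stayed added falls without each library in turn. Rgcc, a cell cycle regulator, Ciart, a repressor of the circadian clock, and Klf4, a transcription factor of quiescence, changed by -2.13 ± 0.41, -2.24 ± 0.48 and -2.05 ± 0.51. Rgcc left the class without resting replicate 5 or DMSO replicate 4, Ciart without resting replicate 4 or DMSO replicates 4 or 5 and Klf4 without resting replicates 4 or 5, DMSO replicates 1, 4 or 5 or TEPP-46 replicates 1 or 5. Slc25a15, a mitochondrial ornithine carrier, Taf4b, a subunit of the transcription factor TFIID, and the aldo-keto reductase gene Akr1c13 changed by -2.45 ± 0.67, -2.51 ± 0.57 and -2.40 ± 0.54, and each kept its class in 2 of the 9 fits that left out 1 library. All 62 added falls had the TEPP-46 libraries below all resting and DMSO libraries, which likewise follows largely from how they were chosen.

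Of 26 ribosome biogenesis genes, 6 fell, beside 3.92% of all genes, and the median was -0.64, against 1 fall and 0.07 with DMSO. The falls were Fbl, Nop56, Nop58, Dkc1, Rrp9 and Heatr1, of which the first 5 were added falls. Single libraries moved the count between 1 and 10, with the lowest count without resting replicates 4 or 5 and the highest without TEPP-46 replicate 4. Nop56, a core protein of the box C/D small nucleolar ribonucleoproteins that guide ribosomal RNA methylation, stood at 303, 324 and 301 CPM in resting, 349, 386 and 364 CPM in DMSO and 190.3, 147 and 115 CPM in TEPP-46 libraries. It fell by 1.04 ± 0.21, adjusted p = 0.0154, lost without resting replicates 4 or 5 (highest adjusted p 0.06). Rrp9, a protein of the U3 particle that processes ribosomal RNA, stood at 62, 103 and 92.4 CPM in resting and 30.5, 16.4 and 23.3 CPM in TEPP-46 libraries (-1.86 ± 0.28, adjusted p = 0.00451), and it left the added class without resting replicate 1, DMSO replicates 1, 4 or 5 or TEPP-46 replicate 5. Fbl, the methyltransferase fibrillarin, stood at 91.3, 159.5 and 158 CPM in resting and 73.2, 66 and 47.9 CPM in TEPP-46 libraries (-1.13 ± 0.26, adjusted p = 0.0241), lost without resting replicates 4 or 5 or TEPP-46 replicate 5 (highest adjusted p 0.0918).

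In 9 genes the calls pointed in opposite directions with DMSO and with TEPP-46. With TEPP-46, 8 rose (B4galnt1, St6galnac3, Man2b1, Tbxa2r, Cpa3, Gbp4, Gbp9 and Tgtp2) and Pus7 fell. B4galnt1 and St6galnac3 encode glycosyltransferases, the first of ganglioside synthesis. B4galnt1 stood at 758, 722 and 638 CPM in resting, 332, 370.4 and 304 CPM in DMSO and 1051, 1440.2 and 1402 CPM in TEPP-46 libraries, with 0.88 ± 0.20, adjusted p = 0.0252 against resting, lost without resting replicates 4 or 5, DMSO replicate 5 or TEPP-46 replicate 5 (highest adjusted p 0.11), and -1.07 ± 0.21, adjusted p = 0.00409 with DMSO. St6galnac3 stood at 9.25, 6.07 and 5.84 CPM in resting, 0.736, 2.88 and 1.51 CPM in DMSO and 22.8, 53.4 and 38.5 CPM in TEPP-46 libraries. Its rise against resting, 2.42 ± 0.45, adjusted p = 0.0111, was lost without resting replicates 4 or 5 (highest adjusted p 0.0535). Pus7, a pseudouridine synthase gene, stood at 25.5, 34.6 and 36.3 CPM in resting, 74.8, 78.7 and 69.8 CPM in DMSO and 21.7, 13.9 and 12 CPM in TEPP-46 libraries. Its fall against resting, -1.01 ± 0.27, adjusted p = 0.0441, was lost without resting replicates 4 or 5, DMSO replicates 1, 4 or 5 or TEPP-46 replicates 4 or 5 (highest adjusted p 0.139). The rise of Man2b1, a lysosomal mannosidase gene, was lost without resting replicates 1, 4 or 5, DMSO replicates 1, 4 or 5 or TEPP-46 replicates 4 or 5 (highest adjusted p 0.15). That of Tbxa2r, the thromboxane receptor gene, was lost without resting replicates 1, 4 or 5, DMSO replicates 1, 4 or 5 or TEPP-46 replicate 5 (highest adjusted p 0.154). That of Cpa3, a mast cell carboxypeptidase gene, was lost without resting replicates 1, 4 or 5, DMSO replicates 1, 4 or 5 or TEPP-46 replicate 5 (highest adjusted p 0.133). The direct test against DMSO called all 9 genes, also without each library in turn. Genes called on opposite sides of resting were chosen on these same values, so that call follows largely from the choice. It does not show that each rise or fall against resting holds.

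Further kept and added changes fell outside these groups. Cblb, a ubiquitin ligase that restrains T cell receptor signals, stood at 269, 112 and 78.3 CPM in resting, 250.4, 505 and 359.7 CPM in DMSO and 760.4, 797 and 872 CPM in TEPP-46 libraries and rose by 2.40 ± 0.43, adjusted p = 0.00984, leaving the kept class without resting replicates 4 or 5, DMSO replicates 4 or 5 or TEPP-46 replicate 5. Bcl3, a nuclear partner of NF-kappaB, rose by 2.25 ± 0.28, adjusted p = 0.00183. Tnfsf8, the ligand of CD30, stood at 81.3, 49.6 and 41.1 CPM in resting, 105, 110.4 and 97.8 CPM in DMSO and 188, 181 and 232 CPM in TEPP-46 libraries and rose by 1.80 ± 0.26, adjusted p = 0.00368. It lay above DMSO in the direct test (0.94 ± 0.26, adjusted p = 0.0343), a difference lost without resting replicate 4, DMSO replicates 1, 4 or 5 or TEPP-46 replicate 5 (highest adjusted p 0.132), and left the kept class without resting replicates 4 or 5 or DMSO replicates 1, 4 or 5. Zmat3, a p53 target gene, rose by 1.83 ± 0.23, adjusted p = 0.00211. In all, 5 of 19 p53 targets rose, beside 6.37% of all genes, and 1 rose without resting replicate 4 or 5. Ikzf3, the lymphoid transcription factor Aiolos, stood at 87.1, 60.5 and 60.8 CPM in resting, 44.9, 51.8 and 59.5 CPM in DMSO and 113, 222 and 225 CPM in TEPP-46 libraries and was an added rise (1.42 ± 0.29, adjusted p = 0.0149), lost without resting replicates 4 or 5 (highest adjusted p 0.0675). In edgeR, 0 of 32 oxidative phosphorylation genes, 0 of 24 TCA cycle genes and 0 of 24 cytosolic ribosomal protein genes were called. At an unadjusted p below 0.05 there were 2, 4 and 0, with DESeq2 0, 1 and 0, and with limma-voom 0, 0 and 0. Without TEPP-46 replicate 1, 3, 2 and 2 of them fell, with medians of -0.45, -0.48 and -0.57. Without TEPP-46 replicate 4, 1 oxidative phosphorylation gene rose, and without resting replicate 1, 1 TCA cycle gene fell. The ribosomal protein genes summed to 22266, 5395 and 11167 CPM in TEPP-46 and 9791, 13669 and 11708 CPM in resting libraries, so the TEPP-46 libraries lay on both sides of the resting range.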

How the data were processed

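RNA of the 9 libraries (PureLink RNA extraction, NEBNext Single Cell/Low Input library kit, Illumina HiSeq, per the labels' protocols) was analysed from the table of raw counts per gene that the authors deposited, with no normalization. The submitters' processing notes name GRCm38 and DESeq2. The sources used here give no aligner, counter, annotation release or strand setting. Groups came from the labels.

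Here, genes were filtered with filterByExpr (minimum count 10, minimum total 15), which left 12536 of 47937. EdgeR 4.0.16 (R 4.3.3) with TMM scaling fitted all 9 libraries by group, so that all groups share the estimate of spread, and tested 3 contrasts with its quasi-likelihood test and Benjamini-Hochberg adjustment at 0.05. The standard error is the log2 fold change divided by the root of F. CPM use TMM-scaled totals. CPM are shares of a library, not amounts per cell. Alternatives used DESeq2 1.42.0, limma 3.58.1, other scalings and filters, a replicate block, and each library left out. The testing scripts were checked on simulated data.

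Named genes were the largest changes per class with at least 10 CPM and no overlap of libraries, up to 4 members per list by adjusted p, and preset genes. The members and lists were chosen with earlier results of these data known. Loci are from GENCODE M21 (GRCm38), and promoters from RefSeq. Some members of the lists are counted but not reported here.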

Additional observations from a re-analysis of the deposited data

How the results depend on the processing

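With edgeR's other scaling (RLE factors or total counts), without a filter on low counts or with a minimum count of 30, all 8 counts of rises, falls and classes stayed within 1.5 times their values, and rises made up 61.9%, 62% and 58.5% of calls under the 3 scalings. DESeq2 called 1207 rises and 883 falls, with 796 and 540 kept changes, 761 lost rises and 160 added falls. Limma-voom gave 786 lost rises. With library quality weights limma-voom called 1803 rises and 1557 falls, 992 and 924 kept, 1772 and 1687 lost, and 531 and 403 added. The weights of resting replicate 1 and TEPP-46 replicates 1 and 4 were 0.274, 0.218 and 0.255, against 1.18 to 2.95 in the other libraries. The 6 resting and TEPP-46 libraries alone gave 246 rises and 154 falls, and a test for changes over 2-fold gave 147 and 91. Leaving out 1 library at a time gave 270 to 1081 rises and 156 to 816 falls. Kept rises ranged from 188 to 769 and kept falls from 132 to 447, lost rises from 85 to 1192 and lost falls from 181 to 1251, and added rises from 42 to 360 and added falls from 13 to 244. DESeq2 shared 1277 of its 2090 calls with edgeR's 1289. Of 143 named genes called against resting, 59 kept the call in each alternative run for single genes, and 0 changed sign.

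Replicates 1, 4 and 5 carry the same numbers in each group, but same-numbered libraries deviated together weakly or not at all (correlations of deviations from -0.123 to 0.0893). Among TEPP-46 libraries, each DMSO library correlated best with that of its own number (0.0575, 0.0359 and 0.0869 for replicates 1, 4 and 5). Resting and TEPP-46 libraries of the same number gave -0.106, -0.0902 and -0.123. Not every library correlated best with those of its own number, so the numbers were not treated as pairs. With the replicate block, edgeR called 456 rises and 249 falls, 315 and 191 of them kept, and 83 and 26 changes were added. Of the 705 calls with the block, 683 were also called without it.

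TEPP-46 replicate 4 had the lowest total (2397304 counts), so that 3 counts there correspond to 1.25 CPM, which limits the precision of genes near that level.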

Other observations

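Of the 14 falls of lysosome and autophagy genes with DMSO, 7 were lost with TEPP-46 and 7 could be assigned to neither class. Of the 1976 falls with DMSO over all genes, 730 were lost. Of 30 tested, 2 rose and 1 fell with TEPP-46, with a median change of 0.05, against 3 rises and 14 falls and a median of -0.53 with DMSO. Over all genes, 6.37% rose and 3.92% fell with TEPP-46, a share near that of this list, and 15.5% and 15.8% with DMSO. Leaving out single libraries gave 0 to 3 rises with TEPP-46. In the direct test 7 were higher with TEPP-46 and 1 lower. Ctsa, a lysosomal carboxypeptidase, stood at 144, 222 and 197 CPM in resting, 64.8, 93.1 and 76.9 CPM in DMSO and 220.3, 356 and 434 CPM in TEPP-46 libraries, and it was 2.10 ± 0.29, adjusted p = 0.00288 against DMSO in edgeR's test. Lamp1, a lysosomal membrane protein gene, stood at 263, 229 and 245 CPM in resting, 151, 124 and 148 CPM in DMSO and 285, 274 and 257 CPM in TEPP-46 libraries (0.94 ± 0.18, adjusted p = 0.00911). Both were lost falls. Ctsa left the class without TEPP-46 replicate 1, and Lamp1 left it without DMSO replicates 4 or 5.

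Cell cycle inhibitors and cyclins did not follow one pattern. Of 18 genes for G1 cyclins and CDK control, 4 rose with TEPP-46 and 10 with DMSO, beside 6.37% and 15.5% of all genes. With TEPP-46 there was 1 rise without resting replicate 5, there were 2 without resting replicate 4, TEPP-46 replicate 1 or any of the DMSO libraries, and 0 in the fit of the 6 libraries alone. Cdkn1a, the inhibitor p21, stood at 27.2, 2.64 and 5.19 CPM in resting, 238, 221 and 281 CPM in DMSO and 166, 35.7 and 59.9 CPM in TEPP-46 libraries and rose by 2.88 ± 0.77, adjusted p = 0.0408, lost without resting replicates 4 or 5, DMSO replicates 1, 4 or 5 or TEPP-46 replicates 1 or 5 (highest adjusted p 0.136). Ccnd3, cyclin D3, stood at 164, 402 and 326 CPM in resting, 665, 533 and 636 CPM in DMSO and 317, 183 and 236 CPM in TEPP-46 libraries. It rose with DMSO (1.04 ± 0.32, adjusted p = 0.0338) and was lower with TEPP-46 in the direct test (-1.32 ± 0.33, adjusted p = 0.025), a lost rise except without resting replicates 1 or 5, DMSO replicates 1, 4 or 5 or TEPP-46 replicates 4 or 5. Foxp3, the factor of regulatory T cells, stood at 35.4, 69.2 and 44.1 CPM in resting, 25.5, 33.1 and 30.8 CPM in DMSO and 44.8, 76.5 and 81.9 CPM in TEPP-46 libraries. It was not called against resting (0.45 ± 0.31, adjusted p = 0.392) and was higher than with DMSO (1.18 ± 0.32, adjusted p = 0.0321). Cd28, the costimulatory receptor that the antibodies engage, stood at 640.5, 551 and 632 CPM in resting, 384, 579.6 and 450.0 CPM in DMSO and 929.6, 1185 and 1241 CPM in TEPP-46 libraries and was an added rise (0.88 ± 0.22, adjusted p = 0.0334), except without resting replicates 1, 4 or 5, DMSO replicate 5 or TEPP-46 replicate 5. Of further genes, Slc2a1, Ldha, Trib3 and Ddit3 rose with DMSO (by 1.37 ± 0.26, 1.82 ± 0.46, 1.76 ± 0.39 and 1.35 ± 0.42) and were called neither against resting nor against DMSO with TEPP-46. Ccr7, Il2, Hmox1 and Nr4a1 were called in none of the 3 comparisons. Atf4 was lower than with DMSO in edgeR's direct test, close to the threshold of 0.05 (-1.01 ± 0.31, adjusted p = 0.0492). It was not called against resting (-0.50, adjusted p = 0.331).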
